A study of Homo sapiens with 4 samples.

Results

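The SR proteins and the heterogeneous nuclear ribonucleoproteins (hnRNPs) were followed here through the genes that carry their names, in engineered prostate cancer tissues with and without fibroblasts. The members were the genes of the deposited table whose symbol is SRSF followed by a number or begins with HNRNP and has no hyphen. They numbered 38 of 17791 genes, 12 SRSF genes and 26 HNRNP genes. Choosing by symbol left out family members with other names, such as PTBP1 (hnRNP I) and SYNCRIP (hnRNP Q), and kept 3 pseudogenes, HNRNPA1P10, HNRNPA1P33 and HNRNPA3P1. Of the 38 genes, 34 reached a level of 1 CPM (counts scaled to a total of 1000000) in at least 1 library, 11 SRSF and 23 HNRNP genes. The other 4, SRSF12, HNRNPA1P33, HNRNPCL1 and HNRNPCL2, stayed below 1 CPM in every library.

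SR proteins pair an RNA recognition motif with a tail rich in arginine and serine, bind enhancer sequences in exons and help the spliceosome to recognise the neighbouring splice sites. The hnRNPs coat nascent transcripts, often bind silencer sequences, and act on splicing, export, stability and translation of mRNA. SRSF1 and HNRNPA1 are the classic antagonists in the choice between competing splice sites, and many SRSF genes limit their own level through an alternative exon that sends the transcript to nonsense-mediated decay.

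The 4 groups compared had 1 library each, all from three-dimensional prostate cancer tissues on day 15 with no treatment. The tissues consist of cancer cells in a poly(ethylene glycol)-fibrinogen hydrogel. PC-3, labelled CRPC-ne, and LNCaP, labelled ADPC, are established prostate cancer lines, LNCaP responding to androgen and PC-3 not. Each line was grown alone (monoculture) or at 5 cancer cells to 1 BJ-5ta fibroblast, an immortalised human foreskin line (coculture). The described tissue protocol names PC-3 cells only, and how many tissues were pooled into a library is not stated. With 1 library a group no test between groups was possible. Ratios carry a 95% interval that covers counting error only, and a difference beyond it compares 2 libraries, not 2 conditions.

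Library totals lay between 15520243 and 15865690 counts. KLK3, the prostate-specific antigen gene, stood at 3814 and 4779 CPM in the LNCaP libraries and at 0 in both PC-3 libraries. The sum of the 6 LNCaP markers was 8367 and 10218 CPM in the LNCaP libraries. In the PC-3 monoculture and coculture it was 462 and 413 CPM, of which TMPRSS2 made up 458 and 407 CPM. S100A2, a PC-3 marker, stood at 106 and 76.7 CPM in the PC-3 libraries and below 1 CPM in both LNCaP libraries. The other 5 of the 6 PC-3 markers were higher in the LNCaP coculture than in its monoculture, among them VIM at 338 against 98.7 CPM. The sum of the 6 was 451 CPM with fibroblasts against 100.4 CPM without them in LNCaP, and 1575 and 1386 CPM in the PC-3 libraries. The summed level of 14 fibroblast markers was 331 CPM in the PC-3 monoculture against 983 in its coculture, and 31.5 CPM in the LNCaP monoculture against 1195 in its coculture. In the PC-3 monoculture, grown without fibroblasts, COL1A1 made up 194 CPM of the sum, COL3A1 43.7, FBN1 42.5 and COL6A3 37.3 CPM. COL1A2, a defining collagen gene, was at 1 count or none in the monocultures and at 129 and 231 CPM in the cocultures. Summed over 4 epithelial markers, the level was 1937 CPM in the PC-3 monoculture against 2153 in its coculture. In LNCaP it was 1945 CPM in the monoculture against 2337 in the coculture, and all 4 were higher in both cocultures. The 1 blood marker in the table, CD14, was at 1.66 CPM or less. The 2 endothelial markers in the table ran in opposite ways between the lines. PECAM1 was at 50.5 and 69.6 CPM in PC-3 tissues and no more than 0.0645 CPM in LNCaP, whereas VWF was at 0.191 CPM or less in PC-3 tissues and at 10.8 and 36.6 CPM in LNCaP, 3.38-fold higher (95% interval 2.84 to 4.03) in its coculture. The part of these markers in the results was not tested. Every coculture value below is therefore a mixture of cancer cell and fibroblast RNA, in which fewer cells of a type and less RNA per cell cannot be told apart.

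Together the SRSF genes held 0.17% of all counts in the PC-3 monoculture, 0.166% in the PC-3 coculture, 0.193% in the LNCaP monoculture and 0.18% in the LNCaP coculture. The HNRNP genes held 0.52%, 0.539%, 0.656% and 0.613% in the same order. Both families thus took their largest share in the LNCaP monoculture. Levels of different genes were compared only per kilobase of transcript, in CPM per kilobase. On that scale SRSF9, a close relative of SRSF1 with a short transcript, ranked first in the PC-3 monoculture at 247 and was followed by HNRNPC at 230.4, HNRNPA2B1 at 176 and SRSF1 at 157 CPM per kilobase. HNRNPK followed at 148, while SRSF2, the third SRSF gene, reached 76.2 CPM per kilobase. The 6 highest members held 42.1% of the members' summed CPM per kilobase in that library and 42.4% in the LNCaP monoculture. Ranks and shares depend on the length used, that of the longest main transcript listed, which for HNRNPA1 was 4121 bases. Reads counted for SRSF9 can also come from GATC, which overlaps 46.2% of its exon bases. In the LNCaP monoculture HNRNPC led with 266 CPM per kilobase, and SRSF9 stood sixth with 179.6. The pseudogene HNRNPA1P10 stood second there at 258, a rank that its short length and its likeness to HNRNPA1 make uncertain, since reads of near-identical copies can be divided between them in counting.

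**Figure D1:**
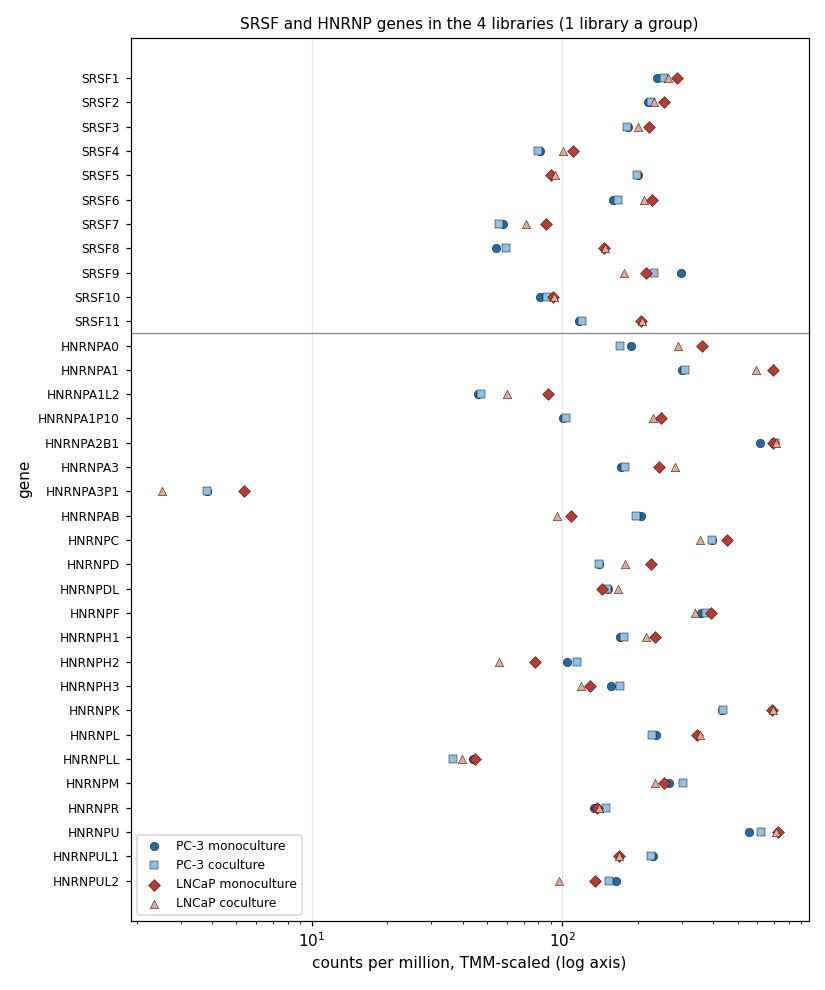
TMM-scaled CPM (log axis) of the 34 members that reached 1 CPM, 1 point for each of the 4 libraries, SRSF genes above the line and HNRNP genes below it. LNCaP points lie to the right of PC-3 points for SRSF8, SRSF11, HNRNPA0 and HNRNPA1 and to the left for SRSF5 and HNRNPAB, while most monoculture and coculture points of the same line lie close together.

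The promoters of the members, taken from RefSeq on GRCh38.p14 as 250 bases before to 50 bases after a transcription start, were available for 33 of the 38 genes. A run of letters recurred near the start site: GCCATTT, the core of the motif known for the factor YY1. It was picked out after the sequences had been read, so its share is a description. Searched on both strands, GCCATTT lay within 30 bases of a start in 8 of 33 members (24.2%), against 1.85% of the 13326 genes of the table with a promoter. In the whole 300-base window the shares were 27.3% of members and 5.64% of genes, a gene counting if any of its promoters held the motif. Counted by promoter, they were 10 of 47 member promoters (21.3%) and 4.39% of 35116 RefSeq promoters. The 60 bases around the start are shown for 6 of the 8 genes, 5′ to 3′ on the gene's strand, with the motif in capitals and HNRNPM holding it in reverse complement.
SRSF1: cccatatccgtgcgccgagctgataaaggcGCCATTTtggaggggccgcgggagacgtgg
SRSF3: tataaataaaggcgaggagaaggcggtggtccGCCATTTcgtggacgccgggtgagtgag
HNRNPC: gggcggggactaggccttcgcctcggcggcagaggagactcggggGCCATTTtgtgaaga
HNRNPD: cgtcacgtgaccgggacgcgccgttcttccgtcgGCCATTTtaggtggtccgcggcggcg
HNRNPR: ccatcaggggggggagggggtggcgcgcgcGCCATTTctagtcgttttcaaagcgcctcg
HNRNPM: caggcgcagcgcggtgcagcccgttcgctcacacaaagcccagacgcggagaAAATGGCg
These windows lie at chr17:58007217-58007276 on the minus strand (SRSF1), chr6:36594332-36594391 on the plus strand (SRSF3), chr14:21269413-21269472 on the minus strand (HNRNPC), chr4:82373962-82374021 on the minus strand (HNRNPD), chr1:23344255-23344314 on the minus strand (HNRNPR) and chr19:8444945-8445004 on the plus strand (HNRNPM). Counted from the first transcribed base as 1, the motif began at base 1 in SRSF1 and HNRNPR, 3 in SRSF3 and 5 in HNRNPD. It began farther in at base 16 in HNRNPC and, in reverse complement, at base 23 in HNRNPM. The other 2 holders within 30 bases were HNRNPH1 and HNRNPUL1. Other elements were split unevenly between the families. CCAAT, the box bound by NF-Y, was found on either strand of the 300-base window in 19 of 22 HNRNP genes. It was found in 2 of 11 SRSF genes, against 42.4% of genes of the table. TATAAA was found in 18.2% of members and 9.80% of genes, CACGTG in 21.2% and 11.8%, and GGGCGG in 66.7% and 71.8%. By family CACGTG was found in 7 of 22 HNRNP and 0 of 11 SRSF genes, and GGGCGG in 17 and 5. TATAAA was found in 3 genes of each family. The 8 genes with GCCATTT within 30 bases of a start had a median log2 fold of -0.12 in the LNCaP coculture against monoculture, and the other 22 measured members with a promoter had -0.11. The medians were 0.03 and 0.03 for the PC-3 coculture, 0.24 and 0.27 for LNCaP over PC-3 in monoculture, and -0.02 and 0.17 in coculture, where 4 of 8 and 15 of 22 genes were above 0.

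The largest differences among the members were between the cancer lines. In the monocultures 16 of 34 members were at least 25% higher in LNCaP, and 5 were at least 20% lower, which is the inverse ratio. Of all 15160 genes at 1 CPM or more, 40.9% were higher and 38.7% lower by the same bounds. The members' median log2 fold was 0.27, against 0.04 over all genes, and only 4 members passed 2-fold in either direction, which 45.7% of all genes did. Of 9845 genes at 20 CPM or more, 1778 were at least 2-fold higher and 1950 at least 2-fold lower. The members' shares were thus near the background for higher values and below it for lower values and for 2-fold differences. By family the median was 0.28 over 11 SRSF genes and 0.21 over 23 HNRNP genes.

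Among the SR proteins, SRSF8 and SRSF5 stood at the ends. SRSF8, which arose as a copy of SRSF2 and lies at chr11:95066877-95071225 (GRCh38.p14), was at 54.6 CPM in the PC-3 monoculture, 59.3 in the PC-3 coculture, 146 in the LNCaP monoculture and 149 in the LNCaP coculture. Both LNCaP libraries lay far above both PC-3 libraries, 2.68-fold higher (95% interval 2.47 to 2.90) in monoculture and 2.50-fold higher (95% interval 2.32 to 2.70) in coculture. SRSF5, an enhancer-binding protein also known as SRp40, with its gene at chr14:69767142-69772005, was at 200.1 CPM in the PC-3 monoculture, 198 in the PC-3 coculture, 89.8 in the LNCaP monoculture and 93.8 in the LNCaP coculture. It was the reverse of SRSF8, 2.23-fold lower (95% interval 2.09 to 2.37) in LNCaP monoculture and 2.11-fold lower (95% interval 1.98 to 2.24) in coculture. The ratio of SRSF5 to SRSF8 counts, a pair formed after the values were seen, was accordingly 3.67 and 3.33 in the PC-3 libraries and 0.615 and 0.632 in the LNCaP libraries.

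SRSF9 (chr12:120461672-120469748) was the other SR gene that was lower in LNCaP, at 296 CPM in the PC-3 monoculture, 232 in the PC-3 coculture, 216 in the LNCaP monoculture and 175 in the LNCaP coculture. Its LNCaP level was 1.37-fold lower (95% interval 1.31 to 1.44) in monoculture and 1.32-fold lower (95% interval 1.26 to 1.39) in coculture. Of the exon bases of SRSF9, 46.2% overlap GATC on the opposite strand, and the library kit does not mark strand, so reads there cannot be assigned to either gene. GATC itself was at 79.3 CPM in PC-3 and 78.7 CPM in LNCaP, both in monoculture, and so differed less between the lines than SRSF9. The 8 remaining SRSF genes above 1 CPM were all higher in the LNCaP monoculture, from 1.12-fold for SRSF10, a repressor when dephosphorylated, to 1.76-fold for SRSF11. SRSF7, which together with SRSF3 also serves mRNA export, was 1.49-fold higher (95% interval 1.37 to 1.62), and SRSF6 was 1.44-fold higher (95% interval 1.36 to 1.51). SRSF12 was read with 14 counts in the LNCaP monoculture and 12 in the LNCaP coculture but with none in either PC-3 library. With the PC-3 libraries set to the 3 counts that a count of 0 allows, the ratios were 4.72 and 4.04. These are not lower bounds, since the LNCaP counts were taken as exact. At under 1 CPM this is a statement about a few reads.

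HNRNPA1 was among the hnRNPs with the largest line differences. This protein binds splicing silencers and shuttles between nucleus and cytoplasm, and its gene (chr12:54280726-54287087) was at 301 CPM in the PC-3 monoculture, 307 in the PC-3 coculture, 695 in the LNCaP monoculture and 595 in the LNCaP coculture. The LNCaP libraries were the high ones, 2.31-fold higher (95% interval 2.24 to 2.39) in monoculture and 1.93-fold higher (95% interval 1.87 to 2.00) in coculture. Its near-identical copies were also higher: the pseudogene HNRNPA1P10 was 2.47-fold higher (95% interval 2.33 to 2.61) and HNRNPA1L2 1.89-fold higher (95% interval 1.73 to 2.07) in monoculture. Summed over the 3 genes, between which reads can be divided, the ratio was 2.30 (95% interval 2.24 to 2.37) in monoculture and 1.93 in coculture. The count ratio of SRSF1 to its antagonist HNRNPA1 was 0.791 in the PC-3 monoculture (95% interval 0.758 to 0.825), 0.828 in the PC-3 coculture, 0.412 in the LNCaP monoculture (0.398 to 0.426) and 0.444 in the LNCaP coculture. The lines therefore separated on this ratio in both culture types, more than the culture types of a line did. Its values can depend on how reads were divided between HNRNPA1 and its copies. The same holds for SRSF1, which shares 56.6% of its exon bases with AC015813.2 on the same strand.

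Related A/B-type and D-type proteins went in different directions. HNRNPA0 was 1.92-fold higher (95% interval 1.83 to 2.00) in the LNCaP monoculture and HNRNPA3 1.41-fold higher (95% interval 1.34 to 1.48), whereas HNRNPA2B1, the highest of that branch per length in PC-3, was only 1.13-fold higher (95% interval 1.10 to 1.16). HNRNPAB (chr5:178204533-178211163) was at 206 CPM in the PC-3 monoculture, 197 in the PC-3 coculture, 108 in the LNCaP monoculture and 94.8 in the LNCaP coculture. It was the lowest hnRNP in LNCaP relative to PC-3, 1.91-fold lower (95% interval 1.81 to 2.03) in monoculture and 2.08-fold lower (95% interval 1.95 to 2.21) in coculture. HNRNPD, also called AUF1, which binds AU-rich elements and directs mRNA decay, went the other way, 1.62-fold higher (95% interval 1.53 to 1.71) in monoculture. The count ratio of HNRNPAB to HNRNPD, again a pair formed after the values were seen, was 1.48 and 1.41 in the PC-3 libraries and 0.478 and 0.535 in the LNCaP libraries.

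**Figure D2:**
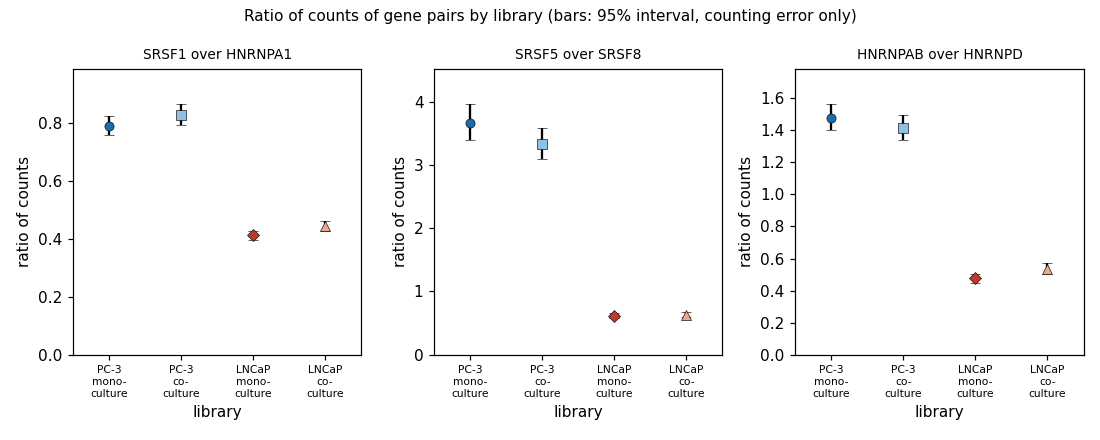
Ratio of counts of 3 gene pairs in each library (point) with its 95% interval for counting error only (bar), on axes that start at 0. In each pair both PC-3 libraries lie above both LNCaP libraries, and the monoculture and coculture of a line lie near each other.

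Of the hnRNPs that bind particular sequence runs, the KH-domain protein HNRNPK, which binds C-rich RNA, was 1.58-fold higher (95% interval 1.53 to 1.62) in the LNCaP monoculture and HNRNPL, which binds CA repeats, 1.46-fold higher (95% interval 1.41 to 1.53). The G-tract binders were divided: HNRNPH1 was 1.38-fold higher (95% interval 1.31 to 1.45), HNRNPF 1.10-fold higher (95% interval 1.06 to 1.14), HNRNPH3 1.22-fold lower (95% interval 1.15 to 1.29) and HNRNPH2 1.35-fold lower (95% interval 1.2497 to 1.45). HNRNPU, a nuclear scaffold protein, was 1.30-fold higher (95% interval 1.26 to 1.34), while its relatives HNRNPUL1 and HNRNPUL2 were 1.37-fold lower (95% interval 1.30 to 1.44) and 1.21-fold lower (95% interval 1.14 to 1.28). For HNRNPUL2 the direction turned when its counts were summed with those of the read-through gene HNRNPUL2-BSCL2, to a ratio of 1.04 (0.997 to 1.09). HNRNPH2 summed with RPL36A-HNRNPH2 stayed lower, at 0.894 (0.841 to 0.95), though such sums can also hold reads of BSCL2 or RPL36A. So the G-tract binders did not share a direction between the lines, nor did HNRNPU and HNRNPUL1. HNRNPR, HNRNPLL and HNRNPM differed by 5% or less.

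The lines were also compared in coculture, with libraries other than those of the monocultures. There 13 members were at least 25% higher in LNCaP and 9 at least 20% lower, against 39.5% and 39.7% of 15155 genes. In all 5 members passed 2-fold, 2 higher and 3 lower, against 44.3% of genes. Of 9754 genes at 20 CPM or more, 1724 were at least 2-fold higher and 1914 at least 2-fold lower. Across the 34 members the log2 fold of the cocultures followed that of the monocultures with Pearson's r of 0.91 and Spearman's rho of 0.90, and over 14784 genes with r of 0.95. Each axis rests on 2 libraries that all its points share. 29 of 34 members had the same sign in both, against 90.1% of all genes, so the members were no more alike in sign than other genes. The 5 that did not were HNRNPA3P1, HNRNPC, HNRNPDL, HNRNPF and HNRNPR, all but HNRNPA3P1 within a log2 fold of 0.21 in both. HNRNPC, which binds U tracts, was 1.15-fold higher (95% interval 1.12 to 1.19) in LNCaP monoculture and 1.12-fold lower (95% interval 1.08 to 1.16) in coculture.

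**Figure D3:**
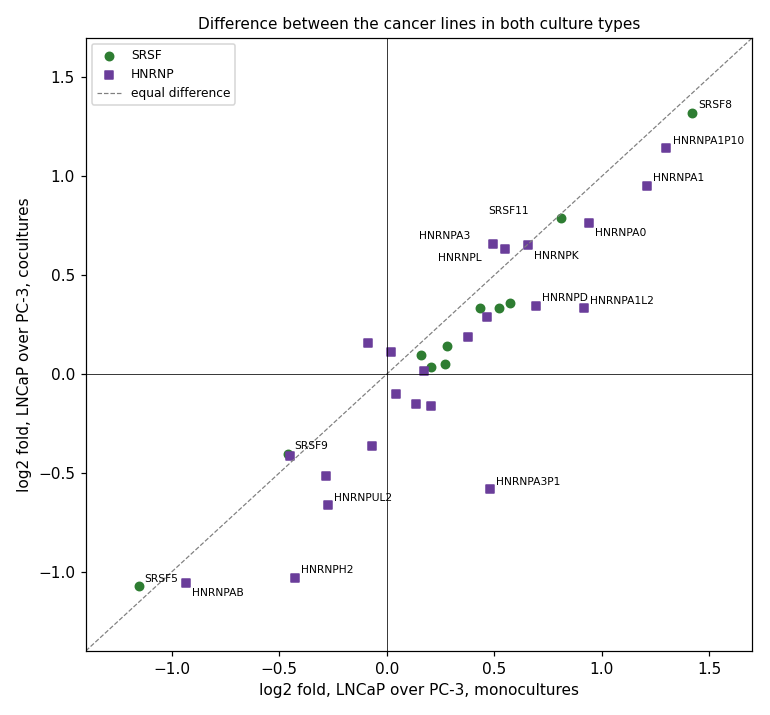
Log2 fold of LNCaP over PC-3 for the 34 members, in monoculture (horizontal axis) and coculture (vertical axis), with the line of equal difference dashed. SRSF8, HNRNPA1P10 and HNRNPA1 lie at the upper right, SRSF5 and HNRNPAB at the lower left, and HNRNPH2, HNRNPA1L2 and HNRNPA3P1 lie farthest below the dashed line.

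Fibroblasts in the PC-3 tissues came with small differences. With fibroblasts no member was at least 25% higher than in PC-3 cells alone and 1 was at least 20% lower, while 11.8% of 14417 genes were higher and 12.3% lower by this measure. No member passed 2-fold, against 3.23% of genes. The median log2 fold was 0.04 over the members and 0.0043 over all genes. Since most members are well expressed, the share among the 8802 genes at 20 CPM or more is the nearer background, with 5.52% higher and 7.25% lower. At these shares 0 and 1 of 34 members are not far from the background.

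The member past this bound was SRSF9, 1.28-fold lower (95% interval 1.22 to 1.33) in the PC-3 coculture. It was also 1.23-fold lower (95% interval 1.17 to 1.29) in the LNCaP coculture, so both cocultures lay below their monocultures. HNRNPA0, HNRNPLL and HNRNPUL2 were the other 3 members whose interval lay below 1 in both lines, but HNRNPUL2 summed with its read-through gene had a PC-3 ratio of 1.02 (0.98 to 1.07). Short transcripts as a class were lower in the cocultures. Among the shortest 20% of genes, those under 1807 bases in the PC-3 comparison and 1797 bases in the LNCaP comparison, the median log2 fold was -0.14 in PC-3 and -0.14 in LNCaP, and the main transcript of SRSF9 has 1201 bases. Relative to genes of like length SRSF9 stood at a log2 fold of -0.18 in PC-3 and -0.14 in LNCaP, less than 20% lower in both. GATC, which overlaps it, had a ratio of 1.02 in PC-3 and 0.838 in LNCaP.

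On the higher side in PC-3 were HNRNPA2B1, which also sorts microRNAs into vesicles, HNRNPM, a regulator of CD44 splicing, and HNRNPR. HNRNPA2B1 was at 614 CPM in the PC-3 monoculture, 704 in the PC-3 coculture, 691 in the LNCaP monoculture and 712 in the LNCaP coculture, 1.15-fold higher (95% interval 1.12 to 1.18) in the PC-3 coculture. HNRNPM was at 266 CPM in the PC-3 monoculture, 303 in the PC-3 coculture, 254 in the LNCaP monoculture and 235 in the LNCaP coculture, 1.14-fold higher (95% interval 1.09 to 1.19) in PC-3, and HNRNPR was 1.12-fold higher (95% interval 1.06 to 1.19). HNRNPU was close to these, 1.12-fold higher (95% interval 1.09 to 1.15). Of its exon bases 15.6% overlap COX20 on the opposite strand, and COX20 had a ratio of 0.706. After SRSF9 the lowest were HNRNPLL, known for control of CD45 splicing in lymphocytes, 1.20-fold lower (95% interval 1.08 to 1.35), and the intronless gene HNRNPA0, 1.11-fold lower (95% interval 1.05 to 1.17). For 22 of the 34 members the counting interval of the PC-3 ratio held 1, against 58.1% of all genes and 48.3% of those at 20 CPM or more. Among these 22 were SRSF2 to SRSF8, SRSF10, SRSF11, HNRNPA1, HNRNPC and HNRNPK.

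The LNCaP coculture lay lower for most members. Of 34, 23 had a log2 fold below 0 and 11 above 0, with a median of -0.12 against 0.00033 over all 14119 genes. Of those genes 7052 were below 0 and 7067 above 0. The counting interval lay below 1 for 22 members and above 1 for 3, whereas among all genes it lay below 1 for 25.8% and above 1 for 27.8%. Among genes at 20 CPM or more, the nearer background, these shares were 28.7% and 33.4%. The shift was small in size: no member was at least 25% higher and 6 were at least 20% lower, against 16.8% and 19.3% of genes. 1 member, the pseudogene HNRNPA3P1 at 85 counts in monoculture and 39 in coculture, passed 2-fold, against 7.59% of genes. At 20 CPM or more 5 of 33 members were at least 20% lower, against 13.0% of genes, all 5 of them among the 22 HNRNP genes at that level. The members' share is thus near the background under both filters, while the count of intervals below 1 lies above it. The SRSF median was -0.12 and the HNRNP median -0.12, and summed counts of the families were 0.929 (95% interval 0.914 to 0.945) and 0.93 (0.922 to 0.938) of the monoculture. Beside this, the share of counts held by 86 cytosolic ribosomal protein genes, chosen by symbol, went from 6.23% in the LNCaP monoculture to 3.97% in its coculture. In PC-3 it went from 2.96% to 2.23%, and the fibroblast marker sum went up in both lines. Their part in the result was not tested. Leaving the ribosomal protein genes out of the scaling moves all genes almost alike and so cannot show that part. With that scaling 22 of 34 members were below 0. Their median was then -0.07 and that of all genes 0.05.

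Among SR genes in the LNCaP coculture 7 of 11 had an interval below 1 and none above it. SRSF9 was lowest and SRSF7 next, 1.20-fold lower (95% interval 1.11 to 1.30). SRSF1 was at 238 CPM in the PC-3 monoculture, 255 in the PC-3 coculture, 286 in the LNCaP monoculture and 264 in the LNCaP coculture, 1.08-fold lower (95% interval 1.04 to 1.13) in LNCaP, where relative to genes of like length its log2 fold was -0.01. SRSF1 shares 56.6% of its exon bases with AC015813.2 on the same strand, a gene not analysed here. SRSF2, a resident of nuclear speckles, was at 219.9 CPM in the PC-3 monoculture, 227 in the PC-3 coculture, 254 in the LNCaP monoculture and 232 in the LNCaP coculture, 1.09-fold lower (95% interval 1.05 to 1.14). Its exons overlap MFSD11 on the opposite strand (36.7% of exon bases), which was read at 29.95 CPM in the LNCaP monoculture and 32.4 in the coculture. SRSF5, SRSF8, SRSF10 and SRSF11 stayed within their counting error between the LNCaP libraries.

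Among hnRNPs in the LNCaP coculture the lowest by the naming rule, which asks for 100 counts, were HNRNPA1L2, HNRNPUL2 and HNRNPH2. HNRNPA1L2 was at 46.2 CPM in the PC-3 monoculture, 47.5 in the PC-3 coculture, 87.4 in the LNCaP monoculture and 59.9 in the LNCaP coculture, 1.46-fold lower (95% interval 1.34 to 1.59), but its reads can be divided with those of its near-identical relative HNRNPA1, which was 1.17-fold lower (95% interval 1.14 to 1.20). Besides HNRNPA3P1, the other 2 past 20% lower were HNRNPC at 395 CPM in the PC-3 monoculture, 397 in the PC-3 coculture, 456 in the LNCaP monoculture and 355 in the LNCaP coculture, 1.28-fold lower (95% interval 1.24 to 1.33), and HNRNPD at 139.6 CPM in the PC-3 monoculture, 139.6 in the PC-3 coculture, 226 in the LNCaP monoculture and 177 in the LNCaP coculture, 1.27-fold lower (95% interval 1.21 to 1.34). HNRNPC and HNRNPD did not differ between the PC-3 libraries beyond counting error. HNRNPA0 was just short of 20% lower, at a log2 fold of -0.32. Against the common direction, HNRNPA3 was at 172 CPM in the PC-3 monoculture, 178 in the PC-3 coculture, 242 in the LNCaP monoculture and 282 in the LNCaP coculture, 1.16-fold higher (95% interval 1.11 to 1.22), and HNRNPDL, a paralog of HNRNPD, was at 152 CPM in the PC-3 monoculture, 150.2 in the PC-3 coculture, 144 in the LNCaP monoculture and 167 in the LNCaP coculture, 1.17-fold higher (95% interval 1.10 to 1.23). HNRNPD and HNRNPDL, which lie close together on chromosome 4, thus had opposite differences. HNRNPK was at 435 CPM in the PC-3 monoculture, 439 in the PC-3 coculture, 686 in the LNCaP monoculture and 690.0 in the LNCaP coculture, level within counting error between monoculture and coculture of both lines.

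**Figure D4:**
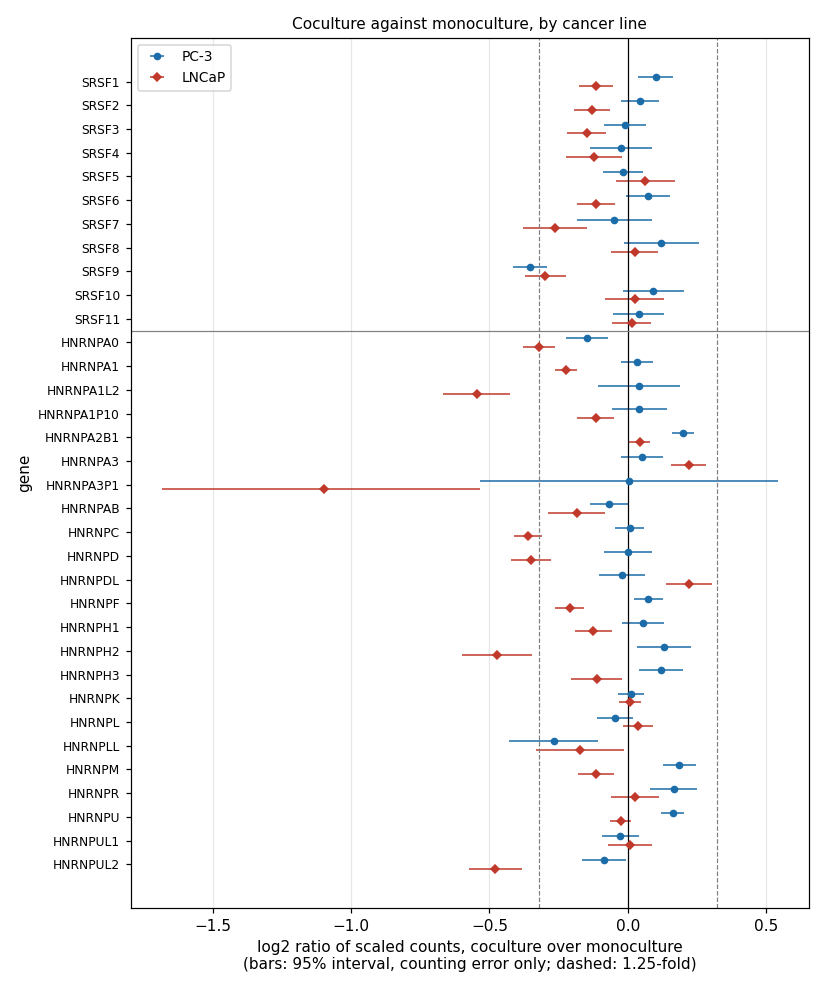
Log2 ratio of scaled counts, coculture over monoculture, for the 34 members in PC-3 (circles) and LNCaP (diamonds), with 95% intervals for counting error only and dashed lines at 25% higher and 20% lower. Most LNCaP points lie left of 0, most PC-3 points lie near 0 or right of it, and SRSF9 lies left in both.

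HNRNPH2 and HNRNPUL2 need a second reading, because read-through genes in the table hold some of the same exons. RPL36A-HNRNPH2 on chromosome X shares 16.3% of the HNRNPH2 exon bases and HNRNPUL2-BSCL2 on chromosome 11 shares 44.1% of those of HNRNPUL2, on the same strand. HNRNPH2 alone was at 104 CPM in the PC-3 monoculture, 114 in the PC-3 coculture, 77.6 in the LNCaP monoculture and 56.0 in the LNCaP coculture, 1.39-fold lower (95% interval 1.27 to 1.51) in the LNCaP coculture. RPL36A-HNRNPH2 was at 34.7, 39.2, 46.8 and 88.4 CPM in the same order of libraries, 1.89-fold higher in the LNCaP coculture (95% interval 1.73 to 2.07). With the counts of both summed, the direction turned: the LNCaP coculture was 1.16-fold higher (1.09 to 1.23), and the LNCaP to PC-3 ratio in coculture was 0.94 in place of 0.489. HNRNPUL2 alone was at 163 CPM in the PC-3 monoculture, 154 in the PC-3 coculture, 135 in the LNCaP monoculture and 97.0 in the LNCaP coculture, 1.39-fold lower (95% interval 1.30 to 1.49). Summed with HNRNPUL2-BSCL2 it kept its direction in the LNCaP coculture at a ratio of 0.807 (0.771 to 0.844), just short of 20% lower. The LNCaP to PC-3 ratio of that sum was 0.821 (0.784 to 0.859) in coculture. In the PC-3 coculture and between the monocultures the sum turned to a ratio above 1 with an interval that held 1, as given above. The sums were formed after the values were seen. Each read-through gene also spans the other gene in its name, RPL36A or BSCL2, so a sum can hold reads of that gene. A sum is therefore not a corrected level of HNRNPH2 or HNRNPUL2, and how much the other gene adds was not tested.

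**Figure D5:**
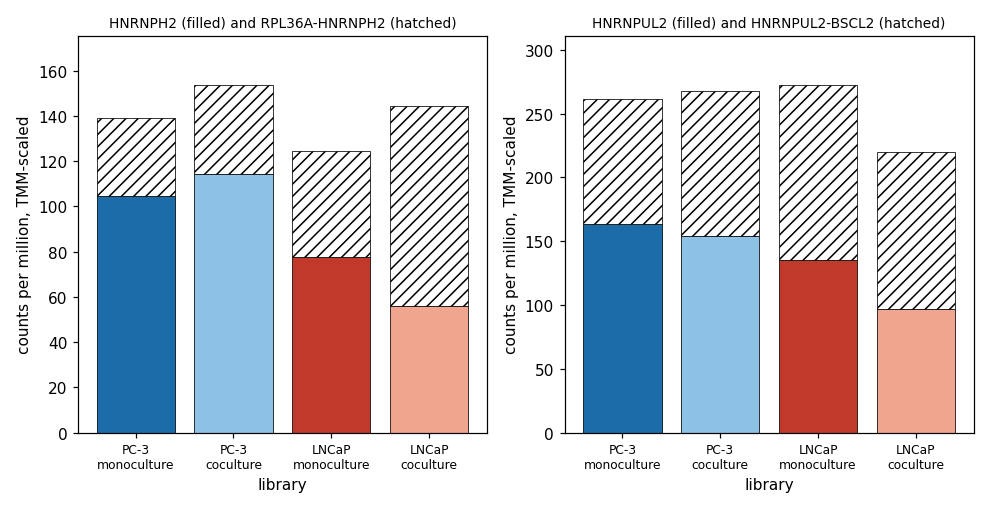
TMM-scaled CPM of HNRNPH2 and HNRNPUL2 (filled) with the read-through gene that shares their exons stacked on top (hatched), 1 bar per library. The filled HNRNPH2 bar is shorter in the LNCaP coculture than in the LNCaP monoculture while the whole bar is taller, and for HNRNPUL2 both are shorter.

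The coculture differences of the lines were set against each other. Subtracting the PC-3 log2 fold from the LNCaP log2 fold gave a median of -0.17 over the 34 members and 0.02 over 13005 genes. 27 members had a lower value in LNCaP, as did 6195 of the 13005 genes. The counting interval lay below 0 for 21 of these members, against 20.9% of genes and 22.0% of those at 20 CPM or more. It lay above 0 for 2 members, HNRNPA3 and HNRNPDL, against 24.1% and 28.6%. By family the interval lay below 0 for 5 of 11 SRSF genes and 16 of 23 HNRNP genes. Across the members the folds of the lines had a Pearson's r of 0.22 against 0.40 over all genes. 16 of 34 members had the same sign in both lines, against 57.0% of genes.

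The annotation adds how these genes are transcribed. In GENCODE release 29 all 12 SRSF genes have at least 1 transcript marked for nonsense-mediated decay, as do 13 of the 23 HNRNP genes with a protein-coding transcript, against 40.1% of 14977 genes of the table. Transcripts with a retained intron are listed for 9 SRSF and 14 HNRNP genes, against 54.3% of genes. The deposited counts are 1 value a gene, so productive and decay-bound transcripts of these genes are summed in every value above.

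The partners of these proteins were described from lists chosen by function. Of 12 other SR-like activators, 10 were above 0 in the PC-3 coculture, with a median log2 fold of 0.13, and none was 25% higher or 20% lower. Of all 14417 genes 7319 were above 0, and 11.8% and 12.3% passed these bounds. Of genes at 20 CPM or more 5.52% and 7.25% passed them. BCLAF1 was highest, 1.16-fold higher (95% interval 1.09 to 1.23), and TRA2A lowest at a log2 fold of -0.12. In LNCaP the coculture median was -0.01, with SRRM1, a spliceosome co-activator, 1.16-fold higher (95% interval 1.11 to 1.23), and ACIN1 1.38-fold lower (95% interval 1.30 to 1.46). Between the monocultures 7 of the 12 activators were at least 25% higher in LNCaP and 1 at least 20% lower, against the 40.9% and 38.7% of all genes, with a median of 0.45.

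The kinases that phosphorylate SR proteins, with their import factors, gave a median of 0.03 for the PC-3 tissues and 0.04 for the LNCaP tissues over 10 genes, coculture against monoculture. CLK2 was 1.31-fold higher (95% interval 1.20 to 1.44) in the PC-3 coculture, and CLK4, at 249 counts in monoculture and 176 in coculture, was the 1 gene of the list at least 20% lower, with a log2 fold of -0.47. Among those at 20 CPM or more CLK1 was lowest at -0.09. In LNCaP CLK1 was highest at 0.14 and PRPF4B lowest at -0.14. None of these 10 genes passed either bound in the LNCaP coculture, against 16.8% and 19.3% of all genes. For the PC-3 coculture the shares of all genes were 11.8% and 12.3%. Among genes at 20 CPM or more the shares were 12.1% and 13.0% in LNCaP and 5.52% and 7.25% in PC-3.

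Among 32 other splicing regulators none passed either bound in the PC-3 coculture, against 11.8% and 12.3% of all genes. Of genes at 20 CPM or more 5.52% and 7.25% did. At the ends of the list were ESRP2, an epithelial regulator, 1.17-fold higher (95% interval 1.06 to 1.28), and KHDRBS3, 1.22-fold lower (95% interval 1.07 to 1.40). In the LNCaP coculture 1 was at least 25% higher and 5 at least 20% lower, against the 16.8% and 19.3% of all genes. At 20 CPM or more it was 1 and 4 of 30, against 12.1% and 13.0% of genes. MBNL2 was 1.51-fold higher (95% interval 1.28 to 1.79) and TIA1, which binds U-rich sites after weak donor sites, 1.56-fold lower (95% interval 1.41 to 1.73). The 35 core spliceosome genes had a median of 0.04 in PC-3 and -0.08 in LNCaP, where 9 were at least 20% lower (25.7%, against 19.3% of all genes) and none at least 25% higher. At 20 CPM or more it was 6 of 31, against 13.0% of genes. PRPF8 was 1.29-fold higher (95% interval 1.23 to 1.35) and SF3B6 1.29-fold lower (95% interval 1.16 to 1.43) in PC-3. PRPF19 was 1.18-fold higher (95% interval 1.12 to 1.24) and SNRPD2, a short Sm core gene, 1.99-fold lower (95% interval 1.84 to 2.16) in LNCaP. The 15 nonsense-mediated decay genes had medians of 0.0053 and -0.06. Among those at 20 CPM or more the ends were SMG6 at 0.26 and UPF3A at -0.14 in PC-3, and SMG8 at 0.38 and SMG1 at -0.19 in LNCaP, where MAGOHB, below that level, was lowest of the 15 at -0.29. Of 84 ribosomal protein genes at 1 CPM or more, 67 were at least 20% lower with fibroblasts in PC-3 and 74 in LNCaP, against 12.3% and 19.3% of all genes. These genes were chosen by symbol, which does not show that each encodes a protein of the ribosome. Among those at 20 CPM or more RPL7L1 was the highest and RPL37 (PC-3) and RPL39 (LNCaP) the lowest.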

How the data were processed

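RNA was measured by sequencing in 4 engineered tissue libraries prepared with TruSeq RNA v2, a kit that does not mark strand, per the labels' protocols. The deposited table holds expected counts per gene, estimated by the authors and not all whole, for 17791 genes. The submitters' processing notes name Partek, FastQC, STAR and hg38, and the annotation is not given in the sources used here. Counts were rounded to whole numbers. They were scaled by library total and TMM factors (0.996 to 1.01), computed with edgeR 4.0.16 under R 4.3.3. Log2 folds used a prior count of 2 and a filter of 1 CPM in at least 1 of the 2 libraries compared. Because each group has 1 library, no test was run. Ratios carry exact conditional binomial 95% intervals for counting error only, and differences of log2 folds carry delta-method 95% intervals. PCR reads are not independent molecules. A count of 0 allows up to 3 counts, 0.188 to 0.193 CPM. The fold and interval code was tested on simulated data. Levels per kilobase used GENCODE release 29 transcript lengths, in place of the RefSeq lengths intended, which are gene spans. The longest transcript marked as principal was taken where any was marked.

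Named for each of the 4 comparisons were the 3 highest and 3 lowest log2 folds among members with 100 counts or more, with the 3 SRSF and 3 HNRNP genes highest per kilobase in the PC-3 monoculture. From each list of related genes the highest and lowest at 20 CPM or more were named in the coculture comparisons. The remaining members were described after their values were seen. The members and lists were chosen with earlier results of these data known. DESeq2 1.42.0 size factors, the library total alone, a prior count of 0.5, no filter, a filter of 5 CPM, scaling without ribosomal protein genes, and a correction in 20 bins of transcript length served as alternatives, the last chosen after seeing the data. The gene summed with its read-through partner was likewise added later.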

Additional observations from a re-analysis of the deposited data

Results flagged for a closer look

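For 5 members the coculture lay above the monoculture in PC-3 and below it in LNCaP, with both counting intervals excluding 1. Of all 13005 genes 4.47% met the same rule, and 5.21% of those at 20 CPM or more. No member was the other way around, against 4.44% of all genes. The LNCaP minus PC-3 difference of log2 folds was -0.601 for HNRNPH2, -0.300 for HNRNPM, -0.284 for HNRNPF, -0.233 for HNRNPH3 and -0.216 for SRSF1. Whether the lines differ was not tested, because each group has 1 library. The log2 folds of HNRNPM were 0.19 in PC-3 and -0.11 in LNCaP, those of HNRNPF 0.07 and -0.21, and those of HNRNPH3 0.12 and -0.11. HNRNPF, HNRNPH2 and HNRNPH3, which bind G tracts, were 3 of the 5, and HNRNPH1, the fourth G-tract binder, had log2 folds of 0.05 and -0.12 with a PC-3 interval that held 1. All 5 kept opposite signs under the scalings, filters and prior counts tried and with the length correction, where SRSF1 came to -0.010 in LNCaP. HNRNPH2 summed with RPL36A-HNRNPH2 was above the monoculture in both lines, at ratios of 1.10 in PC-3 and 1.16 in LNCaP. That sum can also hold reads of RPL36A.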

How the results depend on the processing

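No paired analysis was possible because each group has 1 library and nothing numbers replicates across groups. With 1 library a group, no replicate could be left out either. Of 126 values recomputed for family medians, member counts and the difference between lines, 118 moved by less than counting error or stayed within 1.5 times the count. Without a filter on low counts the SRSF median of LNCaP over PC-3 in coculture was 0.238, 2 members were at least 25% higher in the LNCaP coculture against monoculture, and 4 were at least 20% lower in the PC-3 coculture. Members past 2-fold then numbered 2 in the LNCaP coculture against monoculture, 9 between the cocultures and 1 in the PC-3 coculture. The length correction, chosen after seeing the data, left 0 members at least 20% lower in the PC-3 coculture and 0 past 2-fold in the LNCaP coculture against monoculture. It turned HNRNPA2B1 in the LNCaP coculture from 0.04 to -0.008 on the log2 scale. Other scalings moved the median of all genes by at most 0.07 on the log2 scale. The median of the members kept its sign under every alternative in all 4 comparisons. The intervals reach beyond the value for HNRNPCL1, HNRNPCL2, SRSF12 and HNRNPA1P33, at 14 counts or fewer a library, so no difference in level of these genes between monoculture and coculture was detectable at this depth except for HNRNPA1P33, read with 9 counts in the LNCaP coculture and none in its monoculture.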
